A study of Rattus norvegicus with 12 samples.

Results

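The potassium channel genes of the rat dorsal striatum were read from the 12 arrays as all genes whose name on the array starts with Kcn, apart from Kcnj13 and Kcne2, which the selection left out. The selection held 84 genes of the 35561 genes on the array, measured by 104 probes. For the 15 genes with more than 1 probe, the brightest probe was taken. The levels of different genes were not compared, since each probe binds with its own strength.

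All 12 animals were male rats with a unilateral 6-hydroxydopamine (6-OHDA) lesion, made with 9 µg of the toxin in the left substantia nigra pars compacta, which removes the dopamine input to the striatum of that side. The 6-OHDA group received no further treatment, the HFS group received high-frequency stimulation of the subthalamic nucleus for 5 days (130 Hz, pulses of 80 µs, 60 µA), and the DOPA group received 2 injections a day of 25 mg/kg L-DOPA with 12.5 mg/kg benserazide for 19 days. The DOPA/HFS group received both. Rats were included only after a large loss of striatal dopamine terminals had been shown. Each group had 3 rats with 1 array each, so every array is a separate animal. Only the stimulated groups carried an implanted electrode, the lesion was common to all groups, and no unlesioned striatum was on the arrays, so that an effect of the lesion itself cannot be read from these values. The question put to each treatment was which genes differed from lesion alone.

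Potassium channels let potassium leave or enter the cell and thereby set its resting potential, its firing threshold and the shape and spacing of its action potentials. In striatal projection neurons, inward rectifiers of the Kir2 type hold the cell at a hyperpolarised resting level, and A-type, Kv1 and KCNQ (M-current) channels delay the first spike and limit firing. Dopamine and acetylcholine act on several of these currents. Two-pore-domain (K2P) channels carry leak current, Kv beta and KChIP proteins bind the voltage-gated pore subunits, and Kcng, Kcns, Kcnf and Kcnv subunits are electrically silent alone and modify the channels they join.

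The tissue label was borne out by the arrays. All 12 striatal projection neuron markers on the array were well above background on all 12 arrays, among them Ppp1r1b (DARPP-32), with log2 signals of 13.19 to 14.12. On the 12 arrays, 50.5 to 63.2% of spots were well above background. This share was 60.3 to 63.2% in the HFS group and 60 to 62.8% in the DOPA/HFS group, above the 53.8 to 58.9% of the 6-OHDA group and the 50.5 to 58% of the DOPA group, and its part in the differences below was not tested. Array DOPA/HFS 3 had 4175 outlier spots in the scanner software's marking, against 2 to 25 on the other 11 arrays. For this reason 8 measured Kcn genes had no value on that array (among them Kcna1, Kcna6, Kcnip2, Kcnj11, Kcnk9, Kcnmb4 and Kcnn1), and their DOPA/HFS values rest on 2 rats. The summed signal of the 10 choroid plexus markers was 9870 to 94458 in the HFS group, 3315 to 6212 in the 6-OHDA group, 3584 to 20252 in the DOPA group and 4172 to 5551 in the DOPA/HFS group.

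A gene counted as measured when its probe was well above background on at least 5 of the 12 arrays. Of the 84 Kcn genes, 62 were measured and 22 were not. In all, 49 genes were above background on every array, 13 on 5 to 11 arrays, 9 on 1 to 4 arrays and 13 on none. No Kcn probe was saturated. All 3 Kv beta and all 3 KChIP genes were measured, together with 31 of 39 voltage-gated subunits, 8 of 11 calcium- or sodium-activated genes, 10 of 14 inward rectifiers and 7 of 10 K2P channels, whereas none of the 3 Kcne accessory subunits was. At the limit, Kcnj6 (GIRK2, a G protein-gated channel) was above background on 5 arrays, and Kcnj10 (Kir4.1, the main astrocytic inward rectifier) and Kcnmb3 on 4. Kcnj2 (Kir2.1) and Kcnq1 were above background on none, which for a single probe is a limit on that probe and not on the gene. Per array, 57 to 60 of the 84 genes were above background in the 6-OHDA group, 63 to 66 in the HFS group, 52 to 60 in the DOPA group and 59 to 66 in the DOPA/HFS group with the highest counts in the stimulated groups, as for the share of all spots above background. On no DOPA array were Kcnh6 and Kcnj6 above background, so that only a fold over a detection level could be given there. The 6-OHDA mean was 1.17-fold above that level for Kcnh6 (measured on 2 of 3 6-OHDA arrays). It was 1.12-fold above it for Kcnj6 (measured on 1 of 3), each gene with a limma adjusted p of 1. These folds are no guaranteed minimum, since the 6-OHDA mean includes arrays not above background and the groups overlapped. The log2 signal of Kcnh6 was 4.42 to 5.96 in the 6-OHDA group and 4.8 to 5.5 in the DOPA group. That of Kcnj6 was 4.76 to 6.4 and 4.69 to 6.01. The detection level was the lowest signal above background on the DOPA arrays, or the probe's own signal where that was higher.

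**Figure D1:**
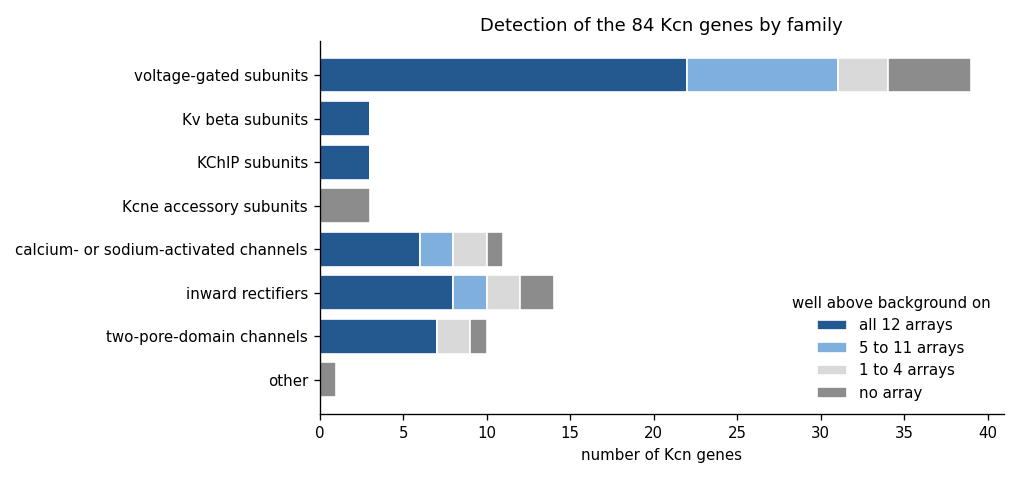
Number of Kcn genes of each family (horizontal axis) whose brightest probe was well above background on all 12 arrays, on 5 to 11, on 1 to 4 or on no array. All 3 Kv beta and all 3 KChIP genes were detected on every array, and the 3 Kcne genes on none.

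No Kcn gene passed the threshold in any comparison. The threshold was a Benjamini-Hochberg adjusted p under 0.1 over all 20378 genes tested with limma, together with a fold over 1.2 or under 0.8. In HFS vs 6-OHDA, 0 of 62 Kcn genes were called, where 0% of all genes tested were called. In DOPA vs 6-OHDA, 0 of 62 were called, against 0.00491% of all genes. In DOPA/HFS vs 6-OHDA, 0 of 62 were called, against 0% of all genes. The arrays with L-DOPA set against those without it (DOPA and DOPA/HFS against 6-OHDA and HFS, here called the L-DOPA main effect) gave 0 of 62, against 0.00491% of all genes. The HFS main effect (HFS and DOPA/HFS against 6-OHDA and DOPA) and the interaction of both treatments each gave 0 of 62, against 0% of all genes. With so few calls over the whole array, these counts cannot set the Kcn genes apart from other genes.

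At an unadjusted limma p under 0.05, 0 of 62 Kcn genes differed in HFS vs 6-OHDA, where 2.35% of all genes did. In DOPA vs 6-OHDA 3 Kcn genes did, against 2.6% of all genes, and all 3 were higher, against 1.32%. In DOPA/HFS vs 6-OHDA 5 did, against 2.76%, with 4 higher (0.829% of all genes) and 1 lower (1.93%). The L-DOPA main effect gave 5 genes, against 2.73% of all genes, with 4 higher (1.24%) and 1 lower (1.49%). The HFS main effect gave 1 gene, against 4.36%, and it was lower (2.71%). The interaction gave 1 gene, against 1.98%. These counts are between 0 and 8.06% of the measured Kcn genes and were not tested as shares. The 3 treatment comparisons share the 6-OHDA arrays, and the same few genes, taken up below, recur in them.

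As a group the Kcn genes lay at the centre of all genes. The median log2 difference of the 62 genes was 0.01 in HFS vs 6-OHDA, 0.03 in DOPA vs 6-OHDA and -0.03 in DOPA/HFS vs 6-OHDA, and over all genes tested it was 0.01, -0.01 and -0.01. With all 84 Kcn genes, unfiltered, the medians were 0.02, -0.01 and -0.02. By family, the lowest median was -0.12, for the 10 inward rectifiers in DOPA/HFS vs 6-OHDA, and the highest was 0.23, for the 3 KChIP genes in the same comparison. Most differences were small, since 60, 59 and 57 of the 62 genes lay within 0.5 log2 units of 6-OHDA after HFS, L-DOPA and both treatments, where 92.4%, 93.7% and 91% of all genes did. The 95% interval of the difference lay within 1 log2 unit on either side of 0, that is, within a doubling or a halving, for 48 genes in HFS vs 6-OHDA, 50 in DOPA vs 6-OHDA and 45 in DOPA/HFS vs 6-OHDA. For the other genes the 3 arrays a group left a doubling or a halving possible.

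**Figure D2:**
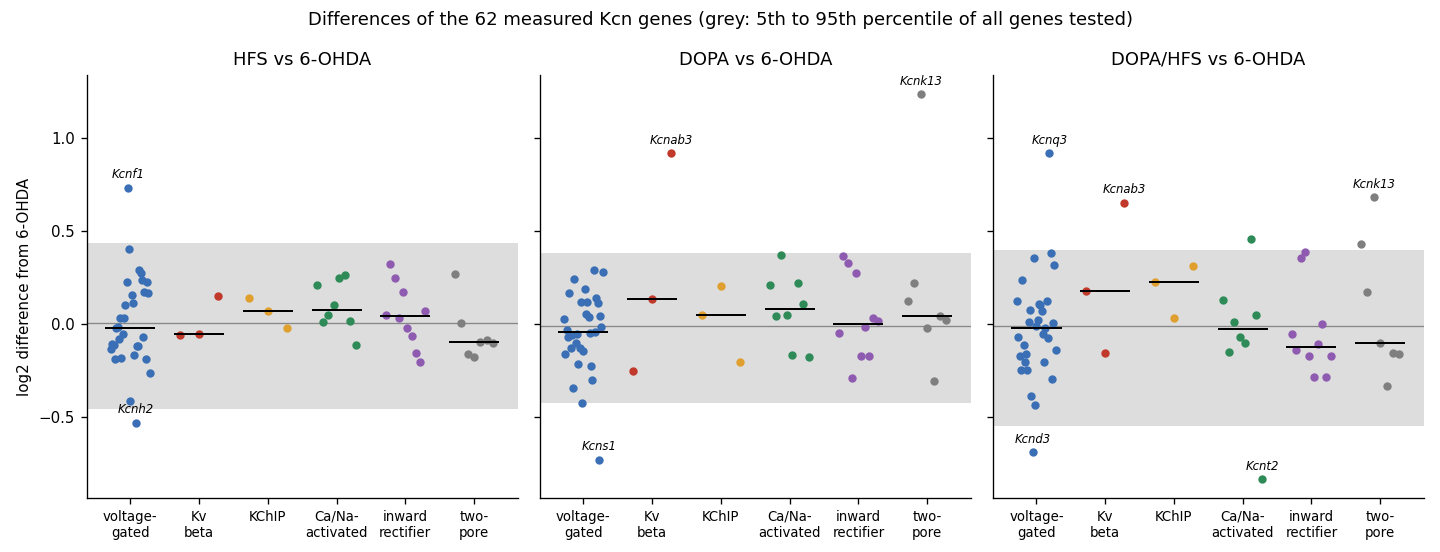
Log2 difference from 6-OHDA (vertical axis) of the 62 measured Kcn genes, by family, in the 3 treatment comparisons. Each point is a gene, black lines are family medians, the grey line is the median of all 20378 genes tested and the grey band spans their 5th to 95th percentiles; Kcnk13 and Kcnab3 lie above the band in both comparisons with L-DOPA, and Kcnq3 above it and Kcnt2 below it in DOPA/HFS vs 6-OHDA.

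The Kcn gene with the lowest p in DOPA vs 6-OHDA and for the L-DOPA main effect was Kcnk13, which encodes the K2P channel THIK-1, a leak channel best known from microglia. Its log2 signal was 11.64, 11.47 and 11 on the 6-OHDA arrays, 11.52, 11.03 and 11.09 on the HFS arrays, 12.70, 12.56 and 12.56 on the DOPA arrays, and 11.25, 12.36 and 12.55 on the DOPA/HFS arrays. All 3 DOPA rats and 2 of the 3 DOPA/HFS rats lay above every rat without L-DOPA, while DOPA/HFS 1 lay among the rats without it. The log2 difference was 1.24 in DOPA vs 6-OHDA (2.36-fold, SE 0.307, limma adjusted p = 1) and 0.68 in DOPA/HFS vs 6-OHDA (1.6-fold, SE 0.307, limma adjusted p = 1). For these 2 comparisons the exact two-sided permutation p was 0.1, the smallest possible for 3 against 3 arrays, and 0.3. The L-DOPA main effect was 1.04 (SE 0.217, limma adjusted p = 0.471; exact two-sided permutation p = 0.00866 for 6 against 6 arrays, for which the smallest possible value is 0.00216). Within slides, DOPA exceeded 6-OHDA by 1.06, 1.09 and 1.56 log2 units, and DOPA/HFS by -0.40, 0.90 and 1.54.

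Whether Kcnk13 passed the threshold depended on the rat DOPA/HFS 1. Without that array, the L-DOPA main effect of Kcnk13 was 1.24 (SE 0.147) with a limma adjusted p of 0.0111, and it was then the 1 Kcn gene called. Leaving out any other array gave no Kcn call. Without that array 28 genes of all were called for the L-DOPA main effect, 0.137% of those tested, against 1 gene with all arrays and 1 without any other array, so Kcnk13 was 1 of the 28. Its difference in DOPA/HFS vs 6-OHDA was 1.09 without DOPA/HFS 1 and 0.43 without DOPA/HFS 3. The same rat also stood apart in Pdyn, the gene of the opioid precursor prodynorphin and a marker of projection neurons. The Pdyn log2 signal was 14.36 to 14.83 on the 6 arrays without L-DOPA, 15.98 to 16.21 on the DOPA arrays, and 14.68, 15.87 and 15.81 on the DOPA/HFS arrays, so that DOPA/HFS 1 lay within the range without L-DOPA for both genes. Other Kcn genes taken up below differed in this. Kcnab3 was 8.11 on DOPA/HFS 1, within its range without L-DOPA (7.60 to 8.49). Kcnq3 was 9.98 and Kcnj14 8.79 there, above their ranges without L-DOPA (9.01 to 9.55 and 8.24 to 8.77). The interaction for Kcnk13 was -0.40 with a 95% interval of -1.35 to 0.56, which holds 0 as well as differences beyond a halving.

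The summed signal of the 7 microglial markers, all of them measured, was 16302 to 17402 in the 6-OHDA group, 15055 to 17997 in the HFS group, 15674 to 17399 in the DOPA group and 16060 to 19278 in the DOPA/HFS group. The 4 ranges overlapped, and none of the 7 genes had an unadjusted limma p under 0.05 in DOPA vs 6-OHDA. The sums that did separate the DOPA from the 6-OHDA arrays were those of 4 endothelial and mural markers (8906 to 10429 against 7719 to 8191) and of the projection neuron markers, which include Pdyn (375671 to 411839 against 339394 to 362186). The mural marker Pdgfrb, left out of its sum for want of a value on DOPA/HFS 3, differed by -0.30 (SE 0.224) in DOPA vs 6-OHDA. None of the 5 endothelial and mural markers on the array had an unadjusted limma p under 0.05 in that comparison. The part of these sums in the Kcnk13 values was not tested. In this bulk tissue, a larger number of cells that express a gene and more of its RNA per cell cannot be told apart.

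**Figure D3:**
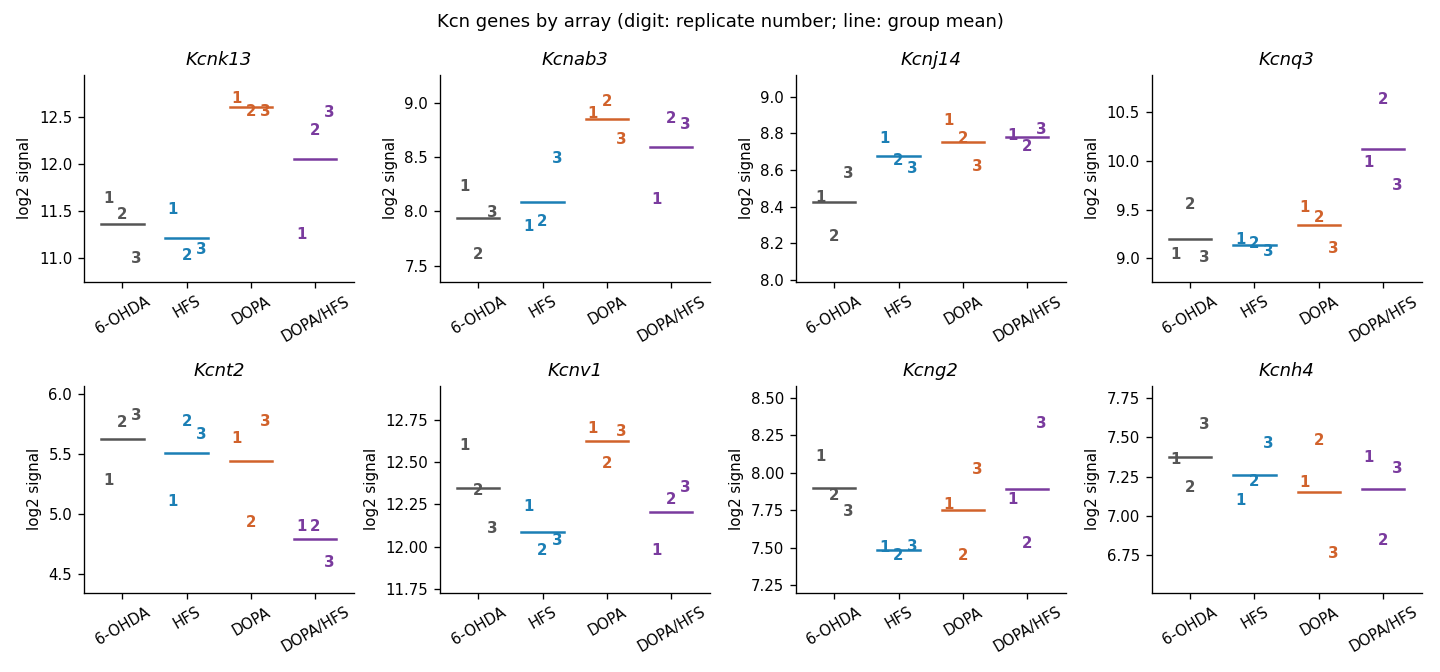
Log2 signal (vertical axis, a separate scale for each gene) of 8 Kcn genes on the 12 arrays by group. Digits are the replicate numbers of the single rats and lines the group means; for Kcnk13 the 3 DOPA rats lie at 12.56 to 12.70 and DOPA/HFS 1 at 11.25.

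Kcnab3 encodes the Kv beta 3 subunit, a cytoplasmic protein that binds Kv1 channels and promotes their inactivation. Its log2 signal was 8.23, 7.60 and 7.99 in the 6-OHDA group, 7.86, 7.91 and 8.49 in the HFS group, 8.90, 9.01 and 8.66 in the DOPA group, and 8.11, 8.86 and 8.80 in the DOPA/HFS group. The DOPA rats lay above all rats without L-DOPA, and again DOPA/HFS 1 lay among those without it. The log2 difference was 0.92 in DOPA vs 6-OHDA (1.89-fold, SE 0.253, limma adjusted p = 1), 0.65 in DOPA/HFS vs 6-OHDA (1.57-fold, SE 0.253, limma adjusted p = 1) and 0.71 for the L-DOPA main effect (SE 0.179, limma adjusted p = 0.999; exact permutation p = 0.00649). For DOPA and DOPA/HFS vs 6-OHDA the exact permutation p was 0.1 and 0.2. In the deposited log2 table the DOPA/HFS difference was 0.35 (SE 0.198, limma adjusted p = 0.925) and the L-DOPA main effect 0.47. The study lists Kcnab3 among its L-DOPA genes, chosen on these same arrays, so these values are no independent evidence. Of the other Kv beta genes, Kcnab1 differed by -0.25 (SE 0.259) and Kcnab2 by 0.14 (SE 0.199) in DOPA vs 6-OHDA.

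Kcnj14 encodes Kir2.4, an inward rectifier of the Kir2 type. Its log2 signal was 8.45, 8.24 and 8.58 in the 6-OHDA group, 8.77, 8.65 and 8.61 in the HFS group, 8.87, 8.77 and 8.62 in the DOPA group, and 8.79, 8.73 and 8.82 in the DOPA/HFS group. All 9 treated rats lay above all 3 untreated ones, by a narrow margin. The log2 difference was 0.25 in HFS, 0.33 in DOPA (1.26-fold) and 0.36 in DOPA/HFS (1.28-fold) vs 6-OHDA, each with an SE of 0.135, and the limma adjusted p was 0.998, 1 and 1. In the deposited log2 table the DOPA/HFS difference was 0.13 (SE 0.156, limma adjusted p = 0.942), and with outlier spots kept it was 0.16. These comparisons share the same 3 low 6-OHDA arrays. The other Kir2 genes that were measured, Kcnj12 (Kir2.2) and Kcnj4 (Kir2.3), gave 0.37 (SE 0.288) and -0.17 (SE 0.338) in DOPA vs 6-OHDA.

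The 4 genes with an unadjusted limma p under 0.05 and higher values for the L-DOPA main effect were Kcnk13, Kcnab3, Kcnq3 and Kcnj14. The promoter table of the rat build GRCr8 held RefSeq entries for 3 of them and none for Kcnq3. The 250 bases before the listed start are shown here for these 3 genes, none of which passed the adjusted threshold. The listed start of Kcnk13 lies inside the annotated gene, whose annotation begins further upstream, so its window need not be that of the outermost start. The windows are chr6:124971559-124971808 on the plus strand for Kcnk13, chr10:54546388-54546637 on the plus strand for Kcnab3 and chr1:105437259-105437508 on the minus strand for Kcnj14, each read 5′ to 3′. Capitals mark the core of the cAMP response element, TGACG or its reverse complement CGTCA, to which CREB, a factor downstream of dopamine D1 receptor signalling, can bind.
Kcnk13: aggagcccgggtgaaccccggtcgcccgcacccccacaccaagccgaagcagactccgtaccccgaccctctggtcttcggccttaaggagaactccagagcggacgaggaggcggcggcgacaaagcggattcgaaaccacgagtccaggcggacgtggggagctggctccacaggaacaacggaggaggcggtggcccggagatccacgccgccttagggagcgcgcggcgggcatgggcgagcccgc
Kcnab3: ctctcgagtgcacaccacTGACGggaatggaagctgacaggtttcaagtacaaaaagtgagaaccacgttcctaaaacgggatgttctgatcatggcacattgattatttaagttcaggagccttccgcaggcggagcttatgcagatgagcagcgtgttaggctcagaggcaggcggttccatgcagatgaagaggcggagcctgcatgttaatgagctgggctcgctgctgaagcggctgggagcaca
Kcnj14: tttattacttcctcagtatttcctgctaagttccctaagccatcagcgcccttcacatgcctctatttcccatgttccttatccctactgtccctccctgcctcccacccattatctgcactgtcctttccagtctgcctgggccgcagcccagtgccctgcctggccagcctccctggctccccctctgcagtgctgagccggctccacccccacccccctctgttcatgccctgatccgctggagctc
The Kcnab3 window held 1 core, ending 227 bases before the start, and the other windows held none. Over all 33469 windows of this length, 18.2% held the core, 1.59% the full element TGACGTCA and 4.05% the AP-1 site TGACTCA, each searched on both strands. Neither the full element, which contains the core, nor the AP-1 site was found in the 3 windows. Of the 84 Kcn genes, 55 had a window and 11 of these, 20%, held the core. The GC content was 69.6% for Kcnk13, 52.8% for Kcnab3 and 59.6% for Kcnj14. A match in such a window is a description of its letters and not evidence of a binding site, and its absence says nothing of sites elsewhere.

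Kcnq3 encodes Kv7.3, a subunit of the M-current channel closed by muscarinic receptors. Its log2 signal was 9.04, 9.55 and 9.01 in the 6-OHDA group, 9.19, 9.15 and 9.07 in the HFS group, 9.52, 9.42 and 9.1 in the DOPA group, and 9.98, 10.63 and 9.75 in the DOPA/HFS group. The 3 DOPA/HFS rats lay above all other 9 rats, and the other 3 groups overlapped. The log2 difference in DOPA/HFS vs 6-OHDA was 0.92 (1.89-fold, SE 0.233, limma adjusted p = 1), against 0.14 in DOPA and -0.07 in HFS vs 6-OHDA. The interaction was 0.84 (SE 0.33, 95% interval 0.12 to 1.57, limma adjusted p = 1). Within slides DOPA/HFS exceeded 6-OHDA by 0.94, 1.08 and 0.74. Kcnq5, another M-current subunit, differed by 0.38 (SE 0.391) in DOPA/HFS vs 6-OHDA.

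Kcnt2 encodes Slick, a sodium-activated channel. Its log2 signal was 5.28, 5.76 and 5.82 in the 6-OHDA group, 5.10, 5.77 and 5.66 in the HFS group, 5.63, 4.93 and 5.77 in the DOPA group, and 4.89, 4.89 and 4.59 in the DOPA/HFS group. The DOPA/HFS rats had the lowest values of all 12 rats. These signals were dim, and the probe was well above background on 2 of 3 arrays in the 6-OHDA group, 3 in the HFS group, 1 in the DOPA group and 2 in the DOPA/HFS group. The log2 difference in DOPA/HFS vs 6-OHDA was -0.83 (0.562-fold, SE 0.256, limma adjusted p = 1). It was -0.29 (SE 0.126) with normexp background correction and -0.32 (SE 0.153, limma adjusted p = 0.925) in the deposited log2 table. The related Kcnt1 (Slack) differed by 0.05 (SE 0.18).

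Kcnv1, a silent subunit that modifies other voltage-gated channels, had a log2 signal of 12.60, 12.33 and 12.11 in the 6-OHDA group, 12.24, 11.98 and 12.04 in the HFS group, 12.70, 12.49 and 12.68 in the DOPA group, and 11.98, 12.28 and 12.35 in the DOPA/HFS group. The stimulated and unstimulated rats overlapped. The HFS main effect of Kcnv1 was -0.34 (0.791-fold, SE 0.117, limma adjusted p = 0.912; exact permutation p = 0.0195).

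Kcng2, another silent subunit, had a log2 signal of 8.11, 7.85 and 7.74 in the 6-OHDA group and of 7.50, 7.45 and 7.51 in the HFS group, with no overlap. Its log2 difference was -0.41 in HFS vs 6-OHDA (SE 0.214, limma adjusted p = 0.998), and 2 dimmer probes of the gene gave -0.14 and -0.28. In the DOPA/HFS group Kcng2 was 7.82, 7.53 and 8.33, which overlapped with 6-OHDA. Kcnh4, a channel of the ether-a-go-go family that the study lists for DOPA/HFS on these same arrays, had a log2 signal of 7.36, 7.18 and 7.58 in the 6-OHDA group and of 7.37, 6.84 and 7.30 in the DOPA/HFS group, which overlapped. Its difference was -0.20 (SE 0.216, limma adjusted p = 1). The size depended on the processing, with -0.43 (SE 0.154, limma adjusted p = 0.925) in the deposited log2 table and a range from -0.43 to -0.04 over the alternatives.

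Groups that do not overlap, with a fold over 1.2 or under 0.8, were found for 1 of 62 Kcn genes in HFS vs 6-OHDA (Kcng2), against 3.2% of all genes with 6 values. In DOPA vs 6-OHDA they were found for 3 of 62 (Kcnk13, Kcnab3 and Kcnj14), against 3.88% of all genes. In DOPA/HFS vs 6-OHDA they were found for 3 of the 54 Kcn genes with a value on every array (Kcnq3, Kcnj14 and Kcnt2), against 2.79%. With 3 arrays against 3 the exact permutation test gives at least p = 0.1 for each.

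Among the 10 Kcn genes with the brightest probes were Kcnk2, Kcnh1, Kcna1, Kcnab1, Kcnv1, Kcnmb4, Kcnk13 and Kcnj4. They include the mechanosensitive leak channel TREK-1 (Kcnk2), Kv1.1 (Kcna1) and the neuronal beta subunit of BK channels (Kcnmb4). Kcnk2 had a log2 signal of 15.33 to 15.73 over the 12 arrays, and its groups overlapped. The 95% interval of the difference from 6-OHDA ran from -0.45 to 0.10 for Kcnk2 in the HFS group, from -0.30 to 0.26 in the DOPA group and from -0.38 to 0.18 in the DOPA/HFS group. A change by 1 log2 unit lay outside the interval in every treatment. For Kcnh1 (Kv10.1) the intervals ran from -0.61 to 0.28, from -0.33 to 0.57 and from -0.34 to 0.55.

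**Figure D4:**
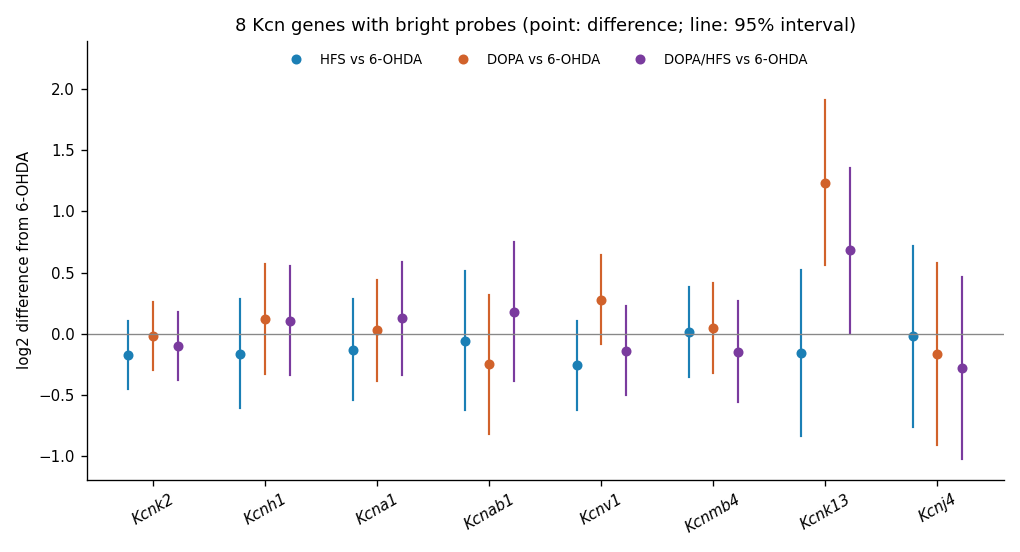
Log2 difference from 6-OHDA (vertical axis) of 8 Kcn genes with bright probes, in each of the 3 treatment comparisons. Points are differences and vertical lines their 95% intervals from the limma fit, not adjusted for the number of genes tested. The Kcnk13 intervals of 0.56 to 1.91 in DOPA and 0.01 to 1.36 in DOPA/HFS lie above 0. Kcnk13 did not pass the adjusted threshold in either comparison.

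The A-type, BK and ATP-sensitive channel genes have roles in the spiking of projection neurons. Kcnd2 (Kv4.2), a pore subunit of the A-type current, differed by 0.10, -0.21 and -0.39 in HFS, DOPA and DOPA/HFS vs 6-OHDA (SE 0.242). Its partners Kcnip1, Kcnip2 and Kcnip4 differed by 0.05, 0.21 and -0.20 in DOPA vs 6-OHDA. Kcna4 (Kv1.4) differed by -0.19, -0.07 and -0.25 (SE 0.15). Kcnma1, the BK channel pore, differed by 0.21, 0.21 and 0.13, and Kcnj11, the pore of the ATP-sensitive channel, by 0.05, -0.05 and -0.05. Larger differences that did not pass the test were those of Kcnd3 (Kv4.3) at -0.69 in DOPA/HFS vs 6-OHDA (95% interval -1.50 to 0.13, limma adjusted p = 1), of the silent subunit gene Kcns1 at -0.73 in DOPA vs 6-OHDA (-1.60 to 0.15, limma adjusted p = 1) and of Kcnf1, another silent subunit gene, at 0.73 in HFS vs 6-OHDA (-0.23 to 1.70, limma adjusted p = 0.998).

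Among 12 listed partners of these channels outside the Kcn names, 7 were on the array and all were tested. None was called. At an unadjusted limma p under 0.05 there were 0 of 7 in HFS vs 6-OHDA, and in DOPA and in DOPA/HFS vs 6-OHDA there was 1 of 7, Cntn2 (contactin-2, which gathers Kv1 channels beside the node of Ranvier). Its log2 difference was -0.36, -0.41 and -0.41 in HFS, DOPA and DOPA/HFS vs 6-OHDA (SE 0.164). The L-DOPA main effect, the HFS main effect and the interaction each gave 0 of 7. Dpp6 and Dpp10, partners of Kv4 channels, differed by 0.25 and 0.23 in DOPA vs 6-OHDA (SE 0.281 and 0.205).

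Between rats of a group, the median SD of the 62 Kcn genes was 0.331 log2 units, against 0.274 over all genes tested, a difference that was not tested. The widest within-group SD was that of Kcng1 (0.905), a silent subunit, and 12 Kcn genes with a wide SD, chosen after their values were seen, are shown by array. Kcng1 was 7.83 on 6-OHDA 3, 7.52 on HFS 2, 7.56 on HFS 3 and 7.15 on DOPA/HFS 1, and 5.57 to 6.24 on the other 8 arrays. The high arrays came from 3 of the 4 groups. Kcnh6 was also highest on these 4 arrays, with 5.92 to 6.20.

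Of the 5 oligodendrocyte markers, Mbp (myelin basic protein) was highest on the same arrays, at 16.11 to 16.32 on the 4 arrays named for Kcng1 and 14.72 to 15.74 on 7 others, with no value on DOPA/HFS 3. The other oligodendrocyte markers did not separate these 4 arrays from the rest. Single markers of other cell types did. The projection neuron marker Drd2 was 11.79 to 11.98 on these 4 arrays and at most 11.68 elsewhere. The microglial marker Csf1r was 10.99 to 11.13 on them and at most 10.96 elsewhere. Other markers of those 2 cell types, such as Ppp1r1b and Aif1, did not follow the 4 arrays. Mog, the gene of another myelin protein, was highest on 6-OHDA 2 (14.31) and was 13.60 on DOPA/HFS 1. The summed signal of the 4 oligodendrocyte markers with a value on all arrays was 36768 to 53200 in the 6-OHDA group, 38965 to 54581 in the HFS group, 34152 to 45978 in the DOPA group and 37681 to 41935 in the DOPA/HFS group. It was 53200, 52722 and 54581 on 6-OHDA 3, HFS 2 and HFS 3, but 41935 on DOPA/HFS 1, which lay below the highest of the 8 other arrays (45978). Slc17a7, a cortical marker, was 4.35 to 7.76 and did not follow these 4 arrays, being 6.00 on 6-OHDA 3 and 7.75 on DOPA 3. The part of tissue composition in the spread of Kcng1 and Kcnh6 was not tested. A second pattern was seen in Kcns3, which was highest on 6-OHDA 1, HFS 3, DOPA 3 and DOPA/HFS 2 (6.79 to 7.09), 1 rat in each group, as was Kcnj6 (5.64 to 6.40). The Kcnj6 probe was above background on no DOPA array, and its 5.64 on DOPA/HFS 2 lay close to the 5.59 on DOPA/HFS 1. Slc17a7 was 7.51, 7.76, 7.75 and 6.33 on the 4 arrays named for Kcns3, and its part in this pattern was not tested.

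**Figure D5:**
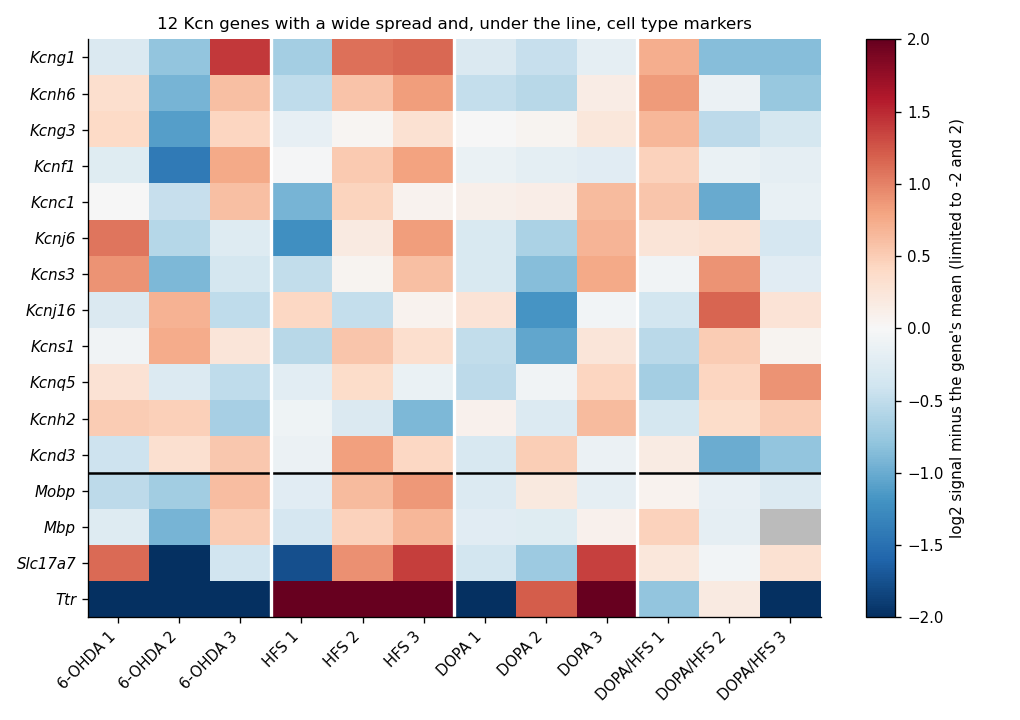
Log2 signal minus the gene's mean over the arrays (colour, limited to 2 on either side) on the 12 arrays for 12 Kcn genes with a wide within-group SD, and under the line for markers of oligodendrocytes (Mobp, Mbp), cortex (Slc17a7) and choroid plexus (Ttr). Grey is a missing value. Kcng1 and Kcnh6 are highest on 6-OHDA 3, HFS 2, HFS 3 and DOPA/HFS 1, as is Mbp, whereas Mobp is higher on DOPA 2 than on DOPA/HFS 1. Drd2 and Csf1r, markers of other cell types that are not drawn, were also highest on those arrays.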

How the data were processed

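Gene expression was measured in 12 rats, 3 in each of 4 groups, with 1 single-colour Agilent array per rat; groups and replicate numbers were taken from the sample labels. Per the labels, Agilent Feature Extraction 9.1 produced the deposited scanner files, whose intensity values are linear and background-corrected but not normalized between arrays. The deposited log2 table had been quantile normalized by the authors and was used as an alternative.

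Control spots (1639 of 45018) and outlier spots were left out. The intensity was taken to log2, quantile normalized, and replicate spots were averaged. A probe had to be well above background on at least 0.4 of the arrays, and a gene took its brightest probe. All 12 arrays were fitted together with limma 3.58.1 in R 4.3.3, without a replicate term, and single genes were also compared by exact permutation tests. The fit was tested on simulated data. Figures were drawn with matplotlib 3.10.9. Each of 3 slides held 1 array of each group, and each group kept 1 place on the slides, so that place and treatment cannot be told apart. Precision is limited by the 3 arrays a group.

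The Kcn genes, the marker lists and the genes named (brightest 10, limma p under 0.05, groups without overlap, neighbours of the detection limit, and Kcnab3 and Kcnh4) were chosen with earlier results of these data known. Of the 84 Kcn genes, 70 had a probe accession in the RefSeq table, all under the same symbol; 2 probes with other names whose accession is a Kcn gene (Csen and Tresk-2) were outside the selection. Some genes that meet these rules are not reported here. Alternatives covered scaling, background correction, the deposited table, filters, probe averaging, outlier spots, a replicate block and leaving out each array.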

Additional observations from a re-analysis of the deposited data

How the results depend on the processing

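No alternative reversed the direction of any of the Kcn genes followed (Kcnk13, Kcnab3, Kcnj14, Kcnq3, Kcnt2, Kcnh4 and Kcnv1). All but Kcnh4 were followed for an unadjusted limma p under 0.05 on these same arrays, and Kcnh4 because the study lists it. A kept direction is therefore no independent evidence. The number of Kcn genes called stayed at 0 in every comparison under every alternative run, except that leaving out array DOPA/HFS 1 gave 1 call, Kcnk13, for the L-DOPA main effect (range 0 to 1 over the arrays left out); 28 genes of all were then called, against 1 without any other array. Kcnk13 in DOPA vs 6-OHDA ranged from 1.05 to 1.37 with limma adjusted p from 0.132 to 1, Kcnq3 in DOPA/HFS vs 6-OHDA from 0.66 to 1.10 (adjusted p 0.724 to 1), and Kcnt2 in the same comparison from -1 to -0.29 (adjusted p 0.729 to 1), the smallest sizes being those with normexp (-0.29) and in the deposited log2 table (-0.32). The number of Kcn genes that did not overlap in HFS vs 6-OHDA, 1 as reported, was 0 with normexp background correction, with the deposited log2 table and with the mean of all probes, and 2 without a filter on dim probes; the cause was not tested. Kcn genes at an unadjusted p under 0.05 numbered 0 to 4 of 62 in HFS, 2 to 6 in DOPA and 2 to 8 in DOPA/HFS vs 6-OHDA over the alternatives (84 tested without the filter), where 1.25% to 9.1%, 1.47% to 4.39% and 1.43% to 6.45% of all genes did.

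Arrays with the same replicate number share a slide, but the labels do not say that they share an animal, litter or day. Their correlations within pairs ran from -0.287 to 0.476, 10 of 18 were over 0.1, and 5 of 12 arrays correlated best with an array of their own number, so the numbers were not taken to pair the rats. With the replicate block, 0 Kcn genes were called in each comparison, the numbers of Kcn genes at an unadjusted p under 0.05 were 0, 3 and 4 in HFS, DOPA and DOPA/HFS vs 6-OHDA (3.2%, 3.05% and 5.07% of all genes), and the L-DOPA main effect of Kcnk13 was 1.04 (limma adjusted p = 0.809). Dim probes limit what can be said of Kcnt2, Kcnj6, Kcnh6 and Kcnd3, which were above background on 8, 5, 7 and 7 of 12 arrays.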
